A study of Capra hircus with 20 samples.

Results

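Contractile genes of myofibroblasts and smooth muscle were followed in cultured goat fat cell precursors and in the adipocytes derived from them. The 9 genes were ACTA2, ACTG2, TAGLN, CNN1, CNN2, MYL9, MYH11, CALD1 and LMOD1, taken by symbol from a table of 20587 mRNA genes, with the FPKM of all transcripts of a symbol summed. FPKM divides fragments by the length of the transcript and by the mapped fragments of the library, so levels of different genes can be set side by side on it. Together the 9 genes held 24 annotated transcripts, of which 13 belonged to CALD1. Their gene numbers in the table were 102191486 (ACTA2), 102178279 (ACTG2), 102185937 (TAGLN), 102190599 (CNN1), 102186110 (CNN2), 102178087 (MYL9), 102177493 (MYH11), 102188560 (CALD1) and 102170047 (LMOD1).

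The cells came from male Jianzhou Daer goats aged 7 days and were used at passage 3. Intramuscular cells were freed with collagenase from the longissimus dorsi muscle and subcutaneous cells from subcutaneous fat, and no sorting is described, so each library is a bulk culture. Intramuscular preadipocytes (IMPA) and subcutaneous preadipocytes (SPA) were collected at day 0, and intramuscular adipocytes (IMA) and subcutaneous adipocytes (SA) after 3 days in medium with oleic acid, a fatty acid that is loaded into lipid droplets. Each group had 5 libraries, and all 4 groups shared the same serum-containing basal medium. The study describes the 5 libraries of a group as biological replicates, but the labels name no goat behind a number, so the p values measure the spread between these libraries. In bulk libraries, fewer cells of a type and less RNA per cell cannot be told apart.

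A myofibroblast is a fibroblast that has built actin stress fibres and can pull on its matrix, and smooth muscle cells use much of the same machinery. Actin filaments made of ACTA2 or ACTG2 are bundled and regulated by transgelin (TAGLN), calponins (CNN1, CNN2) and caldesmon (CALD1), and leiomodin (LMOD1) starts new filaments. The motor is smooth muscle myosin, with MYH11 as heavy chain and MYL9 as the regulatory light chain that is phosphorylated to begin contraction. Most of these genes carry binding sites for serum response factor (SRF), which is switched on by cofactors that are released when actin polymerises (MKL1, MKL2) or, in smooth muscle, by myocardin (MYOCD). Stress fibres and this SRF pathway are known to be high in spread fibroblast-like precursors in culture and to oppose the turn to a rounded, lipid-filled adipocyte.

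Before the results, the culture labels were set against marker genes. Skeletal muscle markers were abundant in the intramuscular cultures and nearly absent from the subcutaneous ones: the 15 measured markers summed to 4691 to 5506 FPKM in IMPA and 14263 to 15196 FPKM in IMA, against 9.09 to 28.3 FPKM in SPA and 9.03 to 11.7 FPKM in SA. MYLPF, TNNC1, ACTC1 and DES, genes of the sarcomere and of the muscle cytoskeleton, had the largest differences among them in IMA against SA. SPA1 stood apart within its group, with 6.42 FPKM of MYLPF where the other SPA libraries had 0.157 FPKM or less. Of the 10 adipocyte markers measured, ADIPOQ, PLIN1, PLIN4, LEP, DGAT2 and RETN were under 1 FPKM in every library, IMA and SA included, and the list summed to 13.0 FPKM or less in any library. The others were CEBPA, CIDEC, LPL and PPARG. In IMPA, IMA, SPA and SA, CEBPA averaged 9.23, 5.42, 5.05 and 3.91 FPKM and CIDEC 0.333, 0.318, 4.65 and 4.35 FPKM. In the same order LPL averaged 1.02, 0.941, 0.549 and 1.34 FPKM and PPARG 0.475, 0.364, 0.624 and 1.03 FPKM. Fibroblast and preadipocyte markers summed to 833.7 to 1257 FPKM in the intramuscular cultures and to 4833 to 6986 FPKM in the subcutaneous ones. DCN was the most abundant of them, with means of 660, 535, 5441 and 4120 FPKM in IMPA, IMA, SPA and SA. DPP4 went the other way, with means of 10.1, 4.55, 2.37 and 1.44 FPKM. CD34, DLK1 and PI16 of this list were under 1 FPKM in every library. The 7 endothelial markers were under 1 FPKM in every library. Of the 7 immune cell markers, PTPRC, CSF1R, AIF1, CD3E and CD79A were under 1 FPKM as well. CD14 averaged 5.91, 9.93, 14.5 and 13.0 FPKM and CD68 0.587, 0.989, 2.27 and 1.23 FPKM in IMPA, IMA, SPA and SA. Of 16 markers of smooth muscle and pericytes outside the 9 genes, MYOCD and the pericyte gene RGS5 were under 1 FPKM in every library, as was the member MYH11, and the other 14 were not. Among those, PDGFRB averaged 18.9 to 42.7 FPKM and SMTN 7.31 to 12.8 FPKM over the 4 groups.

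Intramuscular cultures held far more contractile mRNA than subcutaneous ones, and the genes were unequal in amount. The 9 genes summed to 1109 to 1376 FPKM in IMPA, 963 to 1245 FPKM in IMA, 445 to 533 FPKM in SPA and 457 to 536 FPKM in SA. ACTA2, TAGLN and CALD1 held between 81.0% and 89.0% of that sum in each of the 20 libraries. TAGLN was the most abundant of the 9 by mean FPKM in IMPA and IMA. In the subcutaneous groups TAGLN, CALD1 and ACTA2 lay within 1 order of magnitude of each other, and LMOD1 and MYH11 were lowest in every group.

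**Figure D1:**
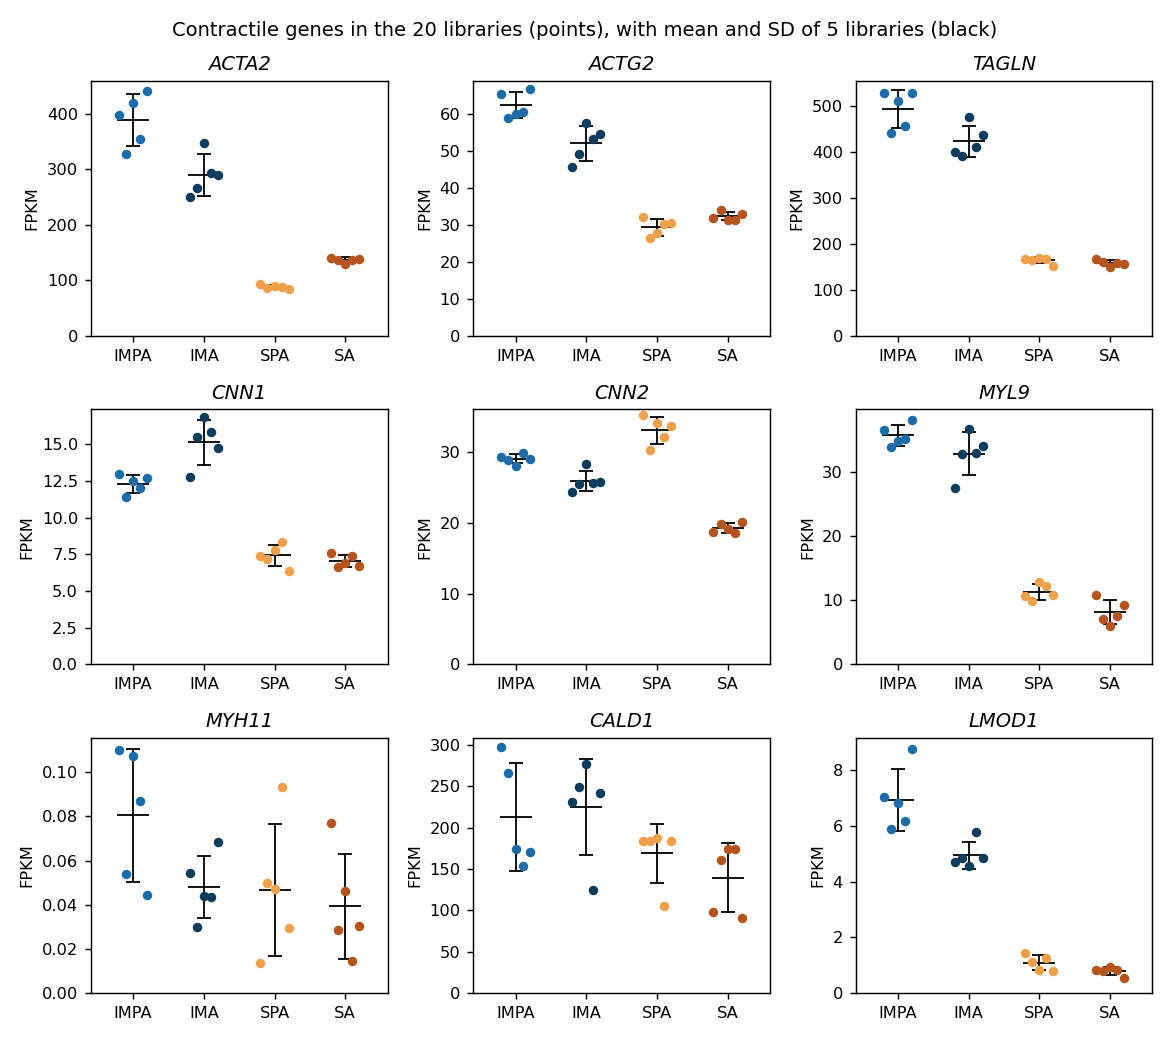
FPKM of the 9 contractile genes (y axis, FPKM, starting at 0 and scaled per gene) in the 5 libraries of IMPA, IMA, SPA and SA. Points are libraries, and black bars are the mean and SD of 5 libraries. ACTA2, ACTG2, TAGLN, CNN1, MYL9 and LMOD1 lie higher in every intramuscular library than in every subcutaneous library, CNN2 is lowest in SA, and MYH11 reaches at most 0.110 FPKM.

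Differences were tested on log2(FPKM + 1) with limma, for the 11432 genes whose FPKM averaged 1 or more across all 20 libraries, and a gene was called at an adjusted p under 0.05. All members but MYH11 passed this filter, so 8 were tested, among them LMOD1, which was under 1 FPKM in SA and passed through its levels in the other groups. Between depots before induction (IMPA against SPA), 6 of the 8 were higher in IMPA, where 42.3% of all genes tested were called higher, and CNN2 was lower, where 32.9% were. The groups did not overlap for those 7 genes, while 35.9% of all genes tested were higher and 27.5% lower without overlap. Between depots after induction (IMA against SA), all 8 were called higher and 0 lower in IMA, against 29% and 43.4% of all genes, and 7 of them did not overlap, against 24% of all genes in that direction. The median log2 difference of the 8 was 1.32 in IMPA against SPA and 1.03 in IMA against SA, beside medians of 0.05 and -0.09 over all genes tested.

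Changes over the 3 days were smaller and differed in direction. In the intramuscular cells (IMA against IMPA), 5 members fell and 1 rose, where 40.2% of all genes tested fell and 19.9% rose, so a fall was common among genes at large. The groups were separate for 2 of the 5 that fell, beside 29.2% of all genes in that direction. In the subcutaneous cells (SA against SPA), 2 members rose and 3 fell, beside 26.1% and 26% of all genes. Of these, 1 rose (ACTA2) and 1 fell (CNN2) without overlap, beside 19.8% and 19% of all genes. Median log2 differences of the 8 were -0.19 and -0.15, beside -0.09 and -0.01 over all genes tested. The changes differed between depots (interaction) for 4 of the 8, beside 55.3% of all genes, so the members were near the background.

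The share of reads that mapped to the genome, as the study lists it, moved with both stage and depot. Its ranges did not meet in any stage or depot comparison. The share was larger in IMPA than in IMA or SPA, and SA had the smallest values. Mapping therefore cannot be told apart from stage in either depot, nor from depot at either stage. With the mapped share in the model, 776 genes were called in IMA against IMPA in place of 6867. None of the 5 falls and not the rise of CNN1 was called in it, while ACTA2 and TAGLN were called higher (0.59 and 0.45, adjusted p = 0.031 and 0.036). The ACTA2 rise in SA and the fall of CNN2 in SA were called also in that model, and the other 3 calls in SA against SPA were not. The interaction was called in it for TAGLN, CNN1 and CNN2 (0.37, 0.64 and 0.73, adjusted p = 0.015, 0.020 and 1.9e-04) and not for ACTA2 and ACTG2 (-0.24 and -0.032, adjusted p = 0.17 and 0.92). In IMPA against SPA, CNN1, CNN2 and LMOD1 lost their calls in it (0.27, -0.18 and 0.98, adjusted p = 0.50, 0.54 and 0.10), and in IMA against SA 7 of the 8 kept theirs. Values of single genes in that model are given for members only, so the calls of related genes below stand without it.

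**Figure D2:**
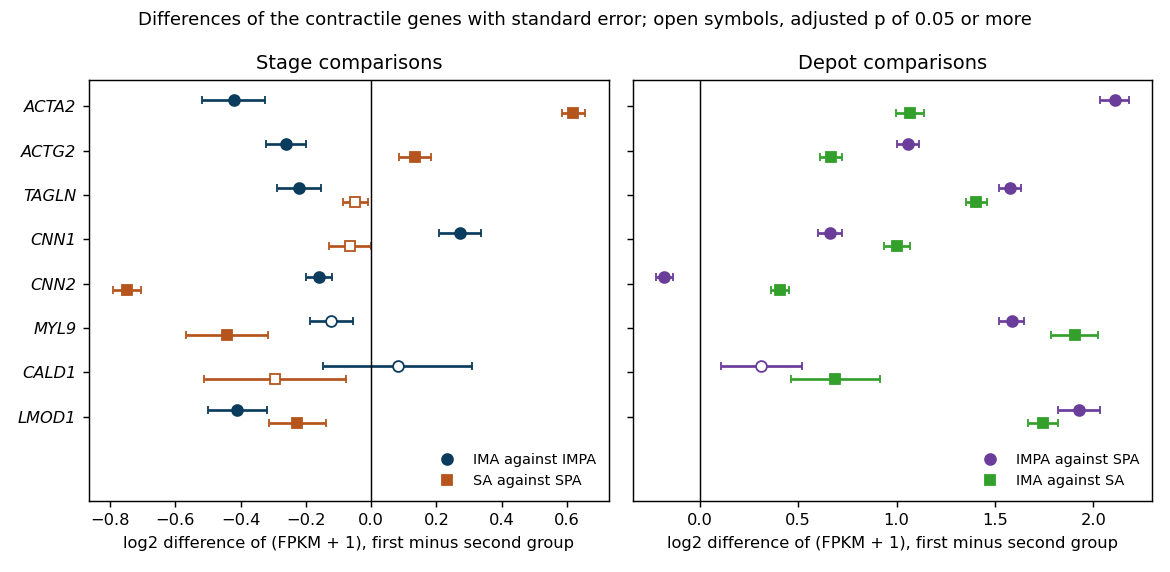
Log2 difference of (FPKM + 1) of 8 contractile genes (x axis) in the stage comparisons (left) and the depot comparisons (right), with the standard error of the limma fit. Filled symbols have an adjusted p under 0.05. ACTA2 lies at -0.42 in IMA against IMPA and at 0.62 in SA against SPA, and in the depot comparisons only CNN2 lies below 0, at -0.18 in IMPA against SPA.

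Smooth muscle alpha-actin (ACTA2), the actin by which myofibroblasts are recognised, was called lower after induction in the intramuscular cells and higher in the subcutaneous ones. Its levels were 399, 327, 419, 354 and 441 FPKM in IMPA1 to IMPA5 and 249.9, 267, 349, 294 and 291 FPKM in IMA1 to IMA5. In the subcutaneous cells they were 94.2, 85.6, 90.4, 89.0 and 85.0 FPKM in SPA1 to SPA5 and 141, 137, 129.7, 138 and 139 FPKM in SA1 to SA5. Every SA library was above every SPA library and below every intramuscular library, whereas IMA3 lay above IMPA2, so those groups overlapped. ACTA2 fell in IMA to 0.747 of the IMPA mean (log2 difference -0.42 ± 0.096 SE, adjusted p = 0.0026 in limma) and rose in SA to 1.54 times the SPA mean (0.62 ± 0.036 SE, adjusted p = 3.0e-08). The test of the difference between these changes gave -1.04 ± 0.11 SE (adjusted p = 5.9e-08). With the mapped share in the model, the intramuscular difference turned to 0.59, the same sign as in SA, and the difference between the changes was not called (-0.24, adjusted p = 0.17). IMPA held 4.37 times the ACTA2 of SPA and IMA held 2.12 times that of SA, with log2 differences of 2.11 and 1.07 (adjusted p = 4.0e-11 and 6.6e-09).

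Smooth muscle gamma-actin (ACTG2), the actin typical of visceral smooth muscle, had the same order of groups at a lower level. It stood at 65.5, 59.0, 60.1, 60.6 and 66.9 FPKM in IMPA1 to IMPA5 and at 45.7, 49.1, 57.6, 53.3 and 54.5 FPKM in IMA1 to IMA5. The subcutaneous values were 32.2, 26.5, 27.8, 30.3 and 30.4 FPKM in SPA1 to SPA5 and 32.0, 34.0, 31.5, 31.5 and 32.9 FPKM in SA1 to SA5. IMPA and IMA did not overlap, while SPA1 reached into the range of SA. ACTG2 fell in IMA (-0.26 ± 0.061 SE, adjusted p = 0.0031, but 0.17 and not called with the mapped share in the model) and was called slightly higher in SA (0.13 ± 0.050 SE, adjusted p = 0.039). That second call was lost in 12 of 23 alternative analyses, with an adjusted p of 0.068 with the replicate number as a block, and leaving out SPA2, SPA3, SA1, SA2 or SA5 ended it (adjusted p = 0.094, 0.097, 0.057, 0.088 and 0.071). The changes differed between depots by -0.39 ± 0.082 SE (adjusted p = 0.00037), and the level in IMPA was 2.12 times that in SPA.

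The striated actins were measured beside them, since these actin proteins are nearly identical. Reads from stretches that their transcripts share can be placed on any of them. ACTC1, the cardiac actin that immature skeletal muscle also makes, averaged 1444 FPKM in IMPA and 2686 FPKM in IMA, and the skeletal actin ACTA1 averaged 204 and 671 FPKM. Both rose where ACTA2 and ACTG2 fell, with log2 differences of 0.90 and 1.72 (adjusted p = 5.4e-07 and 8.2e-09). In the subcutaneous cells ACTA1 did not exceed 1.03 FPKM and ACTC1 did not exceed 3.37 FPKM, both in SPA1, while the lowest ACTA2 value was 85.0 FPKM. How the authors placed reads that fit several actins is not given in the sources used here, and the part of shared reads in the intramuscular values was not tested. The cytoskeletal actins ACTB and ACTG1 fell in both stage comparisons, with log2 differences for ACTB of -0.52 in IMA and -0.58 in SA (adjusted p = 1.1e-06 and 2.8e-05).

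**Figure D3:**
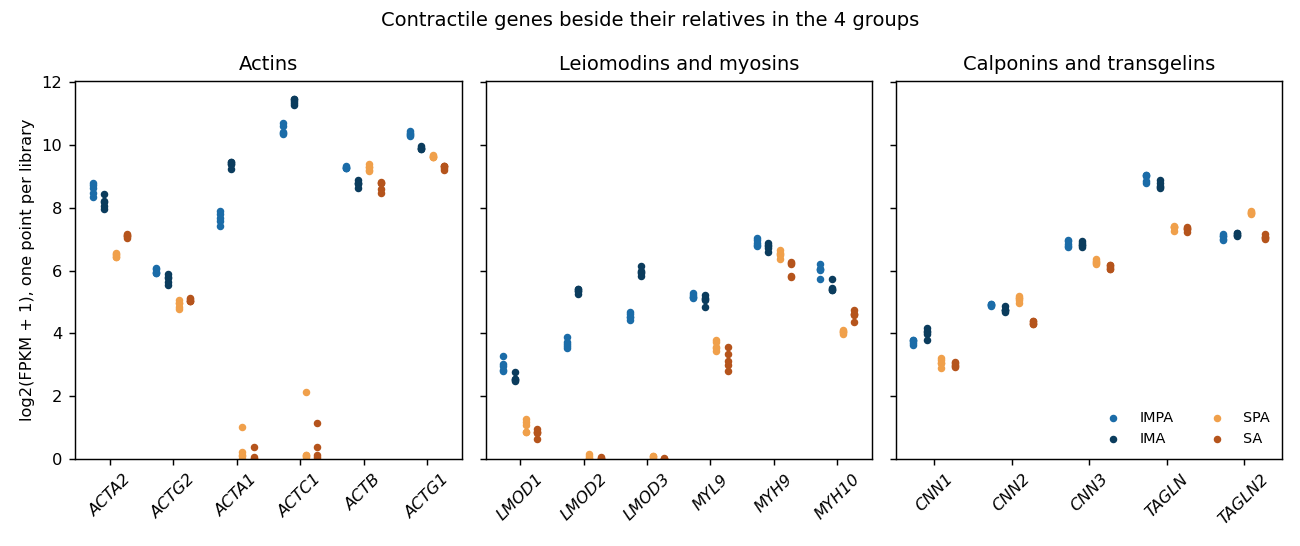
Log2(FPKM + 1) of the contractile genes and of related actins, leiomodins, myosins, calponins and transgelins (y axis), with 1 point per library in each of the 4 groups. ACTA1, ACTC1, LMOD2 and LMOD3 are near 0 in SPA and SA and high in IMPA and IMA, while ACTA2, ACTG2 and TAGLN are present in all 20 libraries.

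Transgelin (TAGLN), an actin-bundling protein that is an early marker of smooth muscle and myofibroblasts, separated the depots at both stages. It was measured at 528, 441, 511, 457 and 529 FPKM in IMPA1 to IMPA5 and at 399.8, 392, 475, 411 and 437 FPKM in IMA1 to IMA5. SPA1 to SPA5 had 168, 165, 169, 167 and 153 FPKM, and SA1 to SA5 had 167, 161, 150.3, 158 and 157 FPKM. The ranges of SPA and SA overlapped almost wholly, and in the muscle-derived cells IMA3 lay above IMPA2 and IMPA4. The mean in IMPA was 3.00 times that in SPA (log2 difference 1.58 ± 0.055 SE, adjusted p = 4.9e-11) and that in IMA was 2.66 times that in SA (1.40 ± 0.053 SE, adjusted p = 1.0e-11). TAGLN fell by 0.22 in IMA on the log2 scale (± 0.066 SE, adjusted p = 0.013, but a rise of 0.45 with the mapped share in the model), and in SA the difference was -0.05 ± 0.038 SE (adjusted p = 0.30). Scaling to an equal sum of mRNA FPKM and quantile normalization turned the SA value into called differences of -0.12 and -0.13 (adjusted p = 0.031 and 0.022). The difference between the changes did not pass the test (-0.17, adjusted p = 0.072), although it did without IMPA2, IMPA4 or IMA3 (adjusted p = 0.022, 0.042 and 0.018).

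The calponins, which bind actin and slow the myosin motor, differed from each other. Basic calponin (CNN1), the form of smooth muscle, was the only member called higher in IMA: it had 12.9, 11.4, 12.5, 12.0 and 12.7 FPKM in IMPA1 to IMPA5 and 12.8, 15.5, 16.8, 15.8 and 14.7 FPKM in IMA1 to IMA5. IMA1 lay just below IMPA1, and the other 4 IMA libraries exceeded every IMPA library. The rise was 0.27 ± 0.065 SE on the log2 scale (adjusted p = 0.0034), and 0.68 without a call with the mapped share in the model (adjusted p = 0.064). In SPA1 to SPA5 CNN1 had 7.38, 7.22, 7.81, 8.37 and 6.36 FPKM and in SA1 to SA5 7.58, 6.63, 6.90, 7.36 and 6.74 FPKM, overlapping groups with a difference of -0.06 ± 0.065 SE (adjusted p = 0.43). The intramuscular change exceeded the subcutaneous one by 0.34 ± 0.093 SE (adjusted p = 0.0043), and IMA held 2.15 times the CNN1 of SA.

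Calponin 2 (CNN2), the form found in many cell types outside muscle, was the only member higher in subcutaneous preadipocytes. Its levels were 29.4, 29.0, 28.1, 29.9 and 29.0 FPKM in IMPA1 to IMPA5 and 24.4, 25.5, 28.3, 25.7 and 25.8 FPKM in IMA1 to IMA5. They were 35.2, 30.3, 34.1, 32.2 and 33.7 FPKM in SPA1 to SPA5 and 18.7, 19.9, 19.1, 18.6 and 20.2 FPKM in SA1 to SA5. Every SPA library was above every other library of the 20 and every SA library below them. CNN2 fell in SA to 0.583 of the SPA mean (-0.75 ± 0.044 SE, adjusted p = 3.3e-08) and less in IMA (-0.16 ± 0.041 SE, adjusted p = 0.0050, not called with the mapped share in the model), a difference of 0.59 ± 0.060 SE between the changes (adjusted p = 4.2e-08). The order of the depots was thus reversed over the 3 days, from -0.18 in IMPA against SPA (adjusted p = 0.0017) to 0.41 in IMA against SA (adjusted p = 2.1e-06). Its relative TAGLN2, a transgelin of nonmuscle cells, fell by 0.78 in SA on the log2 scale (adjusted p = 3.2e-09), from a mean of 229 FPKM in SPA.

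Leiomodin 1 (LMOD1), which starts actin filaments in smooth muscle, was low but had the widest ratio between depots. IMPA1 to IMPA5 had 7.05, 5.89, 6.80, 6.19 and 8.74 FPKM, and IMA1 to IMA5 had 4.70, 4.83, 4.56, 5.78 and 4.86 FPKM. SPA1 to SPA5 had 1.42, 1.12, 0.827, 1.25 and 0.800 FPKM, and SA1 to SA5 had 0.810, 0.788, 0.929, 0.807 and 0.539 FPKM. No intramuscular library came near a subcutaneous one, IMPA and IMA were separate, and SPA and SA overlapped. Mean FPKM was 6.40 times as high in IMPA as in SPA and 6.38 times as high in IMA as in SA. On the log2(FPKM + 1) scale, which understates changes of low genes, these differences were 1.93 ± 0.11 SE and 1.74 ± 0.074 SE (adjusted p = 3.6e-09 and 3.7e-11). LMOD1 fell by 0.41 in IMA (± 0.090 SE, adjusted p = 0.0019), and the value was 0.091 without a call with the mapped share in the model. It was called lower in SA (-0.23 ± 0.088 SE, adjusted p = 0.047), a call lost in 15 of 23 alternatives. Without SPA1 and SA5 the value was -0.12 (adjusted p = 0.21), and leaving out SPA1, SPA2, SPA4, SA1, SA2, SA4 or SA5 alone also ended the call, at adjusted p between 0.065 and 0.11. LMOD2 and LMOD3, the leiomodins of striated muscle, went the other way in the intramuscular cells, from 11.8 to 40.0 FPKM and from 22.4 to 61.7 FPKM (adjusted p = 1.2e-09 and 3.4e-09).

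Caldesmon (CALD1), which covers actin filaments in muscle and nonmuscle cells, was abundant and had the largest SD in FPKM of the 9 genes in every group. Its summed level was 298, 267, 175, 153 and 171 FPKM in IMPA1 to IMPA5 and 231, 249, 277, 125 and 242 FPKM in IMA1 to IMA5. In the subcutaneous cells it was 184, 185, 188, 105 and 184 FPKM in SPA1 to SPA5 and 98.2, 161, 174, 174 and 91.2 FPKM in SA1 to SA5. IMA4, SPA4, SA1 and SA5 were low in their groups, IMPA was divided into 2 high and 3 lower libraries, and all groups overlapped. Only IMA against SA passed the test (0.69 ± 0.22 SE, adjusted p = 0.013), and not without the filter on low values (adjusted p = 0.067), for the most abundant transcript alone (0.69, adjusted p = 0.44) or with the mapped share in the model (0.43, adjusted p = 0.44). The other differences were 0.08 ± 0.23 SE in IMA against IMPA, -0.30 ± 0.22 SE in SA against SPA and 0.31 ± 0.21 SE in IMPA against SPA (adjusted p = 0.78, 0.28 and 0.19).

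Most of that spread lay in a single transcript, XM_018046909.1. This transcript had 107 to 244 FPKM in IMPA, 183 to 219 FPKM in IMA apart from IMA4, and 20.7 FPKM in IMA4. It likewise had 29.1 FPKM in SPA4 and 21.1 FPKM in SA5, against 138 to 146 FPKM in the other SPA libraries, and 59.4 FPKM in SA1. In IMA4, SPA4 and SA5 another transcript was raised in its place: XM_018046908.1 had 18.2, 13.5 and 27.0 FPKM there and at most 1.12 FPKM in the other 17 libraries, and XM_018046907.1 had 26.4 FPKM in IMA4. The 12 transcripts other than XM_018046909.1 summed to 51.8 ± 3.54 FPKM in IMPA, 63.5 ± 23.2 FPKM in IMA, 48.8 ± 15.2 FPKM in SPA and 45.4 ± 13.9 FPKM in SA (SD, n = 5 libraries). Transcript levels are estimates that divide the reads of shared exons, and whether the low libraries differ in RNA or in that division was not tested. The second transcript, XM_018046910.1, was steadier, at 33.1 to 56.6 FPKM over the 20 libraries, and XM_018046903.1 was higher in IMPA than in SPA by 0.67 and in IMA than in SA by 1.11 (log2, adjusted p = 8.2e-05 and 5.1e-05 over 16706 transcripts tested).

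**Figure D4:**
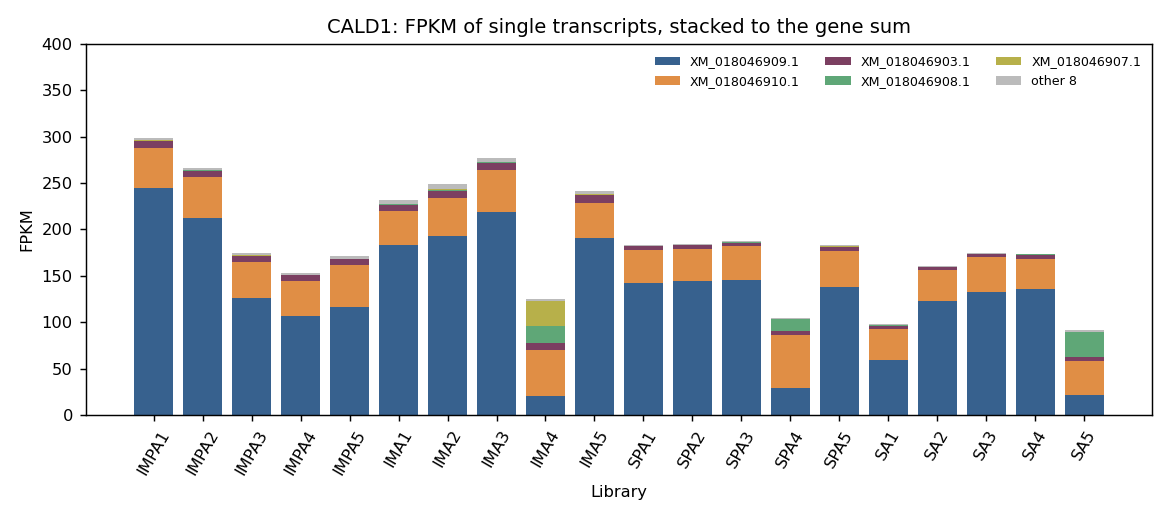
FPKM of the CALD1 transcripts (y axis), stacked to the sum of the gene, in each of the 20 libraries (x axis). The blue block, XM_018046909.1, falls from over 100 FPKM in most libraries to 20.7 FPKM in IMA4, 29.1 FPKM in SPA4 and 21.1 FPKM in SA5, where XM_018046908.1 (green) appears.

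The smooth muscle motor was represented by its light chain but hardly by its heavy chain. The regulatory light chain MYL9 had 36.4, 33.8, 34.7, 35.0 and 38.0 FPKM in IMPA1 to IMPA5 and 27.4, 32.7, 36.6, 32.9 and 34.0 FPKM in IMA1 to IMA5. SPA1 to SPA5 had 10.6, 9.84, 12.8, 12.2 and 10.8 FPKM, and SA1 to SA5 had 10.9, 7.02, 5.99, 7.59 and 9.20 FPKM. Every intramuscular library was far above every subcutaneous one, and within each depot the stages overlapped. The mean was 3.17 times as high in IMPA as in SPA and 4.03 times as high in IMA as in SA (log2 differences 1.58 ± 0.063 SE and 1.90 ± 0.12 SE, adjusted p = 1.6e-10 and 3.5e-09). MYL9 fell in SA (-0.44 ± 0.13 SE, adjusted p = 0.011). With the mapped share in the model this difference stayed below 0 but was not called (adjusted p = 0.15). In IMA the difference was -0.12 ± 0.065 SE (adjusted p = 0.13), which passed the test without IMA3 (-0.16, adjusted p = 0.040). The difference between the changes was 0.32 (adjusted p = 0.075), and it passed without IMA1, SA1 or SA5 (adjusted p = 0.035, 0.0084 and 0.047).

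The smooth muscle heavy chain MYH11 stood at 0.110, 0.0541, 0.107, 0.0869 and 0.0444 FPKM in IMPA1 to IMPA5 and at 0.0301 to 0.0682 FPKM in IMA. It ranged from 0.0136 to 0.0934 FPKM in SPA and from 0.0145 to 0.0770 FPKM in SA. All groups overlapped, and no comparison passed a two-sided exact permutation test on log2(FPKM + 1) (p = 0.063 for IMA against IMPA, 0.64 for SA against SPA, 0.11 for IMPA against SPA and 0.51 for IMA against SA, where 5 libraries against 5 allow no p below 0.0079). Both nonmuscle heavy chains were abundant: MYH9 averaged 119, 107, 91.3 and 66.8 FPKM and MYH10 63.9, 43.3, 15.4 and 23.1 FPKM in IMPA, IMA, SPA and SA. MYH10 was higher in IMPA than in SPA by 1.97 on the log2 scale (adjusted p = 7.9e-11) and rose in SA by 0.55 (adjusted p = 1.1e-05), in the same comparison in which ACTA2 rose.

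Genes around phosphorylation of the light chain were compared as a list of 17, with 15 of them tested. The list also holds the actin-binding calponin CNN3, which was among the higher genes in both depot comparisons and among the lower ones in SA. In IMPA against SPA 10 were higher and 4 lower, beside 42.3% and 32.9% of all genes, and in IMA against SA 9 and 2, beside 29% and 43.4%. In IMA against IMPA 5 rose and 3 fell, beside 19.9% and 40.2% of all genes, and in SA against SPA 4 and 3, beside 26.1% and 26%. Myosin light chain kinase (MYLK), which phosphorylates MYL9, averaged 16.3 FPKM in IMPA, 14.4 FPKM in IMA, 4.03 FPKM in SPA and 5.77 FPKM in SA. It was higher in IMPA than in SPA by 1.79 and rose in SA by 0.43 (log2, adjusted p = 2.5e-12 and 1.2e-04). PPP1R14A, an inhibitor of the myosin phosphatase, rose by 1.27 in IMA (adjusted p = 1.1e-07). It averaged 0.836 FPKM in SPA and 0.498 FPKM in SA, so it passed the filter only through the intramuscular groups. PPP1R14A is among the higher genes of both depot comparisons above, whose counts the filter thus fixed in part. The kinases MYLK2 and MYLK3 of striated muscle were under 1 FPKM in every library.

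SRF, the shared regulator of these genes, fell over the 3 days in both depots. The list around SRF and its cofactors (9 tested) also held ELK1, ELK3, ELK4, TEAD1, YAP1 and WWTR1. In IMPA against SPA 2 were higher and 2 lower, beside 42.3% and 32.9% of all genes. The higher genes were WWTR1 and TEAD1, neither of them a cofactor named above. In IMA against SA 3 were higher (WWTR1, TEAD1 and SRF) and 2 lower, beside 29% and 43.4%. In both stage comparisons 5 of the 9 fell, beside 40.2% of all genes in IMA and 26% in SA. In IMA 1 (WWTR1) rose, beside 19.9% of all genes, and in SA 0 rose, beside 26.1%. SRF averaged 10.5 FPKM in IMPA and 6.83 FPKM in IMA (-0.55 ± 0.053 SE, adjusted p = 4.4e-06), and 9.70 FPKM in SPA and 5.69 FPKM in SA (-0.68 ± 0.052 SE, adjusted p = 4.2e-07). Every library taken after induction was below every library of its depot taken before it. In the main fit SRF thus fell where ACTA2 fell and also where ACTA2 rose. With the mapped share in the model the intramuscular ACTA2 difference was 0.59, and SRF is not reported in that model. In IMPA against SPA the SRF difference was 0.10 (adjusted p = 0.13). In IMA against SA it was 0.23 and called (adjusted p = 9.3e-04).

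Other SRF and cofactor target genes of the actin cytoskeleton were counted in a list of 24, all tested. In IMPA against SPA 17 were higher and 1 lower, beside 42.3% and 32.9% of all genes (median log2 difference 0.68, beside 0.05). In IMA against SA 19 were higher and 0 lower, beside 29% and 43.4% of all genes (median 0.81, beside -0.09). CSRP2, FHL1, TPM2 and SYNPO2 had the largest differences in IMPA against SPA, between 2.08 and 4.06 on the log2 scale, and several of these are also genes of striated muscle. FHL1 and KCNMB1 of this list were at or below 0.226 FPKM in every subcutaneous library and passed the filter through the intramuscular groups, so their difference between depots was fixed by it. Both are included in the counts and medians between depots above, which the filter thus fixed in part. In SA against SPA 16 of the 24 fell and 1 rose, beside 26% and 26.1% of all genes (median -0.35, beside -0.01). The falls were led by FHL2 (-1.34, adjusted p = 1.4e-10) and CSRP1 (-0.79, adjusted p = 4.7e-09). The rise of ACTA2 in SA was therefore on the side of the smaller number. In IMA against IMPA 10 fell and 7 rose, beside 40.2% and 19.9% of all genes (median -0.08, beside -0.09), so the falls were near the background.

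Genes by which myofibroblasts are known outside the contractile apparatus were called in both directions in each comparison. Of 17 matrix and surface genes, all tested, 6 were higher and 8 lower in IMPA against SPA, beside 42.3% and 32.9% of all genes, and 6 higher and 9 lower in IMA against SA, beside 29% and 43.4%. In SA against SPA 7 rose and 5 fell, beside 26.1% and 26% of all genes, and in IMA against IMPA 6 rose and 6 fell, beside 19.9% and 40.2%. Tenascin (TNC), a matrix protein of healing tissue, was 4.23 higher in IMPA than in SPA and rose by 0.87 in SA (log2, adjusted p = 1.2e-12 and 6.6e-06). S100A4, a calcium-binding protein of fibroblasts, was 3.51 lower in IMPA than in SPA (log2 difference -3.51, adjusted p = 1.1e-12) and fell by 2.88 in SA (adjusted p = 4.0e-09). FN1 and POSTN rose in IMA by 1.54 and 1.03 (adjusted p = 1.5e-07 and 1.4e-08).

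Markers of smooth muscle and pericytes beyond the 9 genes summed to 594 to 1952 FPKM in intramuscular libraries and to 47.0 to 71.9 FPKM in subcutaneous ones. DES, shared with skeletal muscle, made up most of the intramuscular sums, with means of 573 FPKM in IMPA and 1743 FPKM in IMA. ITGA8 and MCAM, surface proteins of mural cells, averaged 4.89 and 4.53 FPKM in IMPA and 0.0870 and 0.0409 FPKM in SPA. PDGFRB, CSPG4 and KCNJ8 had the opposite order, with 20.2, 1.68 and 0.436 FPKM in IMPA and 42.7, 4.46 and 0.902 FPKM in SPA. Many genes of this list and of the skeletal muscle list were near 0 in the subcutaneous cells and passed the filter only through the intramuscular groups, so their calls between depots are not counted. In IMA against IMPA 13 of the 15 skeletal muscle markers rose and 1 fell, beside 19.9% and 40.2% of all genes, in the comparison where 5 contractile genes fell. Their part in the intramuscular values of the contractile genes was not tested. Proliferation markers rose in 7 of 7 in SA, beside 26.1% of all genes, and fell in 5 of 7 in IMA, beside 40.2%. ACTA2 had these directions in the main fit, but was 0.59 in IMA against IMPA with the mapped share in the model. The part of the proliferation markers was not tested either.

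Patterns over the 20 libraries were compared after each gene was centred on its own mean of log2(FPKM + 1), by the root mean squared difference, a description over libraries that share 4 group levels. The nearest gene to ACTA2 among 11431 others was SLC1A4, an amino acid transporter (0.127), with mean levels of 12.6, 9.0, 2.21 and 4.67 FPKM in IMPA, IMA, SPA and SA. For TAGLN it was PLCB4 (0.0983), for ACTG2 HSPA4 (0.0792), for CNN1 PPFIBP1 (0.101), for CNN2 HSD3B7 (0.0953), for MYL9 TLE4 (0.180) and for LMOD1 AFAP1L2 (0.170). PLCB4 averaged 0.0494 and 0.0568 FPKM and AFAP1L2 0.0101 and 0.0226 FPKM in SPA and SA, so the 1 added before the log sets much of their subcutaneous level. CALD1 had no near neighbour, with RIT1 at 0.353. TAGLN was the nearest member to ACTA2, MYL9 and LMOD1 (0.258, 0.239 and 0.239), while the nearest member to CNN2, CALD1, stood only 8234th in its order.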

How the data were processed

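Strand-specific libraries were aligned by the authors with HISAT2 2.0.4 (per the labels), and the deposited values are FPKM per transcript from StringTie 1.3.1 and Ballgown on the goat assembly ARS1. Nothing was realigned, and with no counts the depth behind a value is unknown. The mRNA FPKM of a library summed to between 373889 and 413880. FPKM of 43766 mRNA transcripts were summed per symbol. Genes averaging 1 FPKM or more across all libraries entered a fit on log2(FPKM + 1) in limma 3.58.1 under R 4.3.3 with a variance trend, each comparison in a fit of 10 libraries and the interaction over 20, with Benjamini-Hochberg adjustment over 11432 genes. MYH11 was compared by exact permutation.

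All members are named. Of each related list at most 4 genes are named per comparison, those with the largest differences among called genes without overlap, besides markers near 0. The SRF depot difference, MYLPF in SPA1, PDGFRB, SMTN, CNN3 in the phosphorylation list, KCNMB1 and the libraries said to stand apart were chosen after their values were seen. So were the group means of CEBPA, CIDEC, LPL, PPARG, DCN, DPP4, CSPG4, KCNJ8, CD14 and CD68. The members and lists were chosen with earlier results of these data known. Groups come from the sample labels, and age, induction times and mapped shares from the study. Alternatives covered filters, the pseudocount, 3 scalings, the variance model, all groups in the fit, the replicate block, the mapped share, transcripts, added lncRNAs and left-out libraries. The steps were tested on simulated data. The lncRNA tables served only as an alternative, and miRNA libraries are not analysed here. Positions and sequences are not given here.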

Additional observations from a re-analysis of the deposited data

Results flagged for a closer look

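Among 36 groups of 5 libraries (9 genes in 4 groups), 3 held a library far from the rest by Dixon's ratio of gap to range, which chance alone gives in about 1 of 20 groups. TAGLN in SPA5 stood at 153 FPKM, below the other 4 SPA libraries. CALD1 in SPA4 stood at 105 FPKM, where the other 4 lay between 184 and 188 FPKM. LMOD1 in IMA4 stood at 5.78 FPKM, above the other 4 IMA libraries.

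The change over 3 days differed between depots for 4 of 8 genes in the interaction test of limma, beside 55.3% of all genes tested. The intramuscular change minus the subcutaneous change was -1.04 for ACTA2, -0.39 for ACTG2, 0.34 for CNN1 and 0.59 for CNN2 on the log2 scale. ACTA2 fell in the intramuscular cells and rose in the subcutaneous ones, and CNN2 fell in both. With the mapped share in the model, however, the intramuscular ACTA2 difference was 0.59, the intramuscular fall of CNN2 was not called (-0.041, adjusted p = 0.89), and the interaction was not called for ACTA2 and ACTG2.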

How the results depend on the processing

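Of all member values under the alternatives, 924 kept direction and side of the threshold, 38 lost and 10 gained a call, and 12 changed sign, none of these under the 3 scalings. With the mapped share as covariate, IMA against IMPA gave 2 members higher, 0 lower and 776 genes called, with sign changes for ACTA2 (0.59), ACTG2 (0.17), TAGLN (0.45), MYL9 (0.28), LMOD1 (0.091) and CALD1 (-0.11). In that model SA against SPA gave 1 member higher, 1 lower and 3819 genes called in place of 5957 (TAGLN 0.031), IMPA against SPA 0 lower and 2418 genes in place of 8588, and the interaction 0 lower and 2123 genes in place of 6319 (TAGLN 0.37, LMOD1 0.24). CALD1 in IMA against IMPA was -0.27 from its most abundant transcript and ranged from -0.023 to 0.28 without single libraries, being below 0 without IMPA4 or IMA3. In SA against SPA, 1 member in place of 2 was higher without a filter, with an equal mRNA FPKM sum, with quantile normalization, without the variance trend and with all 4 groups in the fit. Without single libraries the number was 1 to 2. Calls in the higher direction made up 36.4% in place of 50.1% in SA against SPA with an equal mRNA FPKM sum, and 48.0% in place of 37.5% in the interaction with quantile normalization. Libraries of the same number did not deviate together (correlations from -0.24 to 0.12), and the replicate block left 1 member higher in SA against SPA and changed no other count of members by over 1.5 times. The cause of these shifts was not tested. With no counts, precision at low FPKM, as for MYH11 and subcutaneous LMOD1, is unknown.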
